A study of Homo sapiens with 16 samples.

Results

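The nuclear receptor genes other than ESR1 and ESR2 were examined for chromatin occupancy by p65, the RELA subunit of NFκB, in 2 colorectal adenocarcinoma cell lines. The list held 41 receptor genes out of 19970 protein-coding genes. For each gene the 200-bp bin with the highest mean signal over the 12 ChIP libraries was taken between 50 kb upstream and 2 kb downstream of its canonical transcription start site (TSS). One of the 41, RXRB, lay in a window with no signal in any of the 16 libraries and was not analysed here, which left 40 receptors, with 40 distinct bins among the 13594 distinct highest bins of the 19036 genes with signal in their windows. The 4 ChIP groups were HT29 and SW480 cells, each as mock control cells and as cells stably made to express ERβ (the product of ESR2), with 3 biological replicates and 1 input library (sheared chromatin without immunoprecipitation) per group. All groups, controls included, were kept in phenol-red-free medium with charcoal-stripped serum without added oestradiol and received TNFα at 30 ng/ml for 30 min before crosslinking, so no comparison here shows a TNFα effect. ERβ was exogenous in both lines, and the sources do not say whether a line is 1 clone or a pool.

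Nuclear receptors are transcription factors of which nearly all carry a zinc-finger DNA-binding domain, and most of them have a ligand-binding domain that responds to steroids, vitamin derivatives, thyroid hormone, fatty acids, oxysterols or bile acids. Several of them, among them the glucocorticoid receptor, the PPARs and the liver X receptors, are known to hold down NFκB target genes in epithelium and macrophages, and the NR4A orphan receptors are immediate-early genes induced by inflammatory stimuli. NFκB in turn binds decameric κB sites, to which p65 is recruited within minutes of TNFα exposure.

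The bin sequences are given first for the receptor genes on which the results turn, with the match to the 10-letter κB consensus in capitals and the remaining bases in lower case. They were read from the GRCh38 plus strand, and parts that the annotation marks as untranslated exon were left out. The first 3 bins lay whole in a receptor's own promoter (from 1 kb upstream to 100 bp downstream of a TSS), at chr12:52051001-52051200, chr2:156333201-156333400 and chr12:47905401-47905600. The PPARD stretch covered chr6:35342401-35342557. The PPARA bin had the highest signal of all the receptors in the windows of the canonical TSS, and no κB match. It lay outside protein-coding genes, at chr22:46105601-46105800, and non-coding genes were not considered.
NR4A1: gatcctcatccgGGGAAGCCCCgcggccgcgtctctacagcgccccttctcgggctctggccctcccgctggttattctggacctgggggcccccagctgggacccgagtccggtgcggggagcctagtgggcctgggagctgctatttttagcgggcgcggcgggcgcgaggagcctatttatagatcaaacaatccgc
NR4A2: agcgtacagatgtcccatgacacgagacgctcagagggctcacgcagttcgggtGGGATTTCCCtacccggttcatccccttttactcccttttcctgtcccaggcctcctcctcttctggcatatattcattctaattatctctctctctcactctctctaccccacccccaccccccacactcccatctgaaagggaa
VDR: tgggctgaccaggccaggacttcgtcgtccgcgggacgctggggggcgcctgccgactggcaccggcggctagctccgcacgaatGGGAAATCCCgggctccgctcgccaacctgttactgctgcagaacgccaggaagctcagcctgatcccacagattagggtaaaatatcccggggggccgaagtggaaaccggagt
PPARD: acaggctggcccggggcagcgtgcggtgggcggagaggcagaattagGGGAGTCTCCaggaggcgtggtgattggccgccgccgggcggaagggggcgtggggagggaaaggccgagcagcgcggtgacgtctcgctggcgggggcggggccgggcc
PPARA: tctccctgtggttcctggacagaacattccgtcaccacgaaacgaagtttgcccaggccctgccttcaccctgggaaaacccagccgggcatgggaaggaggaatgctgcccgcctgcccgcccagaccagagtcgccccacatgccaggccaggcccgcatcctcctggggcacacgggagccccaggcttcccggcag

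A further 2 bound bins held a κB match inside the transcribed part of a neighbouring gene, and only the 30 bases around each match are shown, at chr11:64285153-64285182 for the bin assigned to ESRRA and chr11:47234980-47235009 for the bin assigned to NR1H3.
ESRRA: gtgcccggtcGGAAAGTCCCgctccccgct
NR1H3: gaccactgctGGGGTTTTCCctcagtgtgg

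A κB match was present in 6 of the 10 bound receptor bins and in 6 of the 30 bins not bound. The same consensus, searched on both strands, occurred in 59.5% of the bound and 18.3% of the other highest bins of all genes, so the receptor bins held it about as often as any gene's bins. The AP-1 motif (TGAGTCA or TGACTCA) and the receptor half-site AGGTCA were each found in 0 of the 10 bound and 5 of the 30 other receptor bins, against 9.27% and 11.6% of the bound and 4.95% and 11.2% of the other bins of all genes. Such matches are letters in a window and not mapped sites.

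Signal is given throughout as HOMER tag density per base, scaled by the submitters to 10000000 tags of 100 bp. ESR2 coding exons carried 4.05 to 6.94 times the signal of ESR2 introns in the HT29 ERβ ChIP libraries against 1.05 to 1.34 in HT29 mock, and 2.40 to 3.09 against 1.32 to 1.62 in SW480, as the labels give it. In the inputs the ratio was 2.36 in HT29 ERβ and 1.93 in SW480 ERβ, against 1.24 and 1.53 in mock. These ratios do not measure ERβ expression, which the study reports to be higher in SW480 than in HT29. All 14 genes of a list of well-known NFκB feedback genes, among them NFKBIA and TNFAIP3, were bound in all 4 groups. The libraries differed in enrichment. Over the 2739 bins bound in at least 1 group, the median signal was 3.48 in HT29 mock replicate 1 and 2.95 in HT29 ERβ replicate 1 against 1.49 to 1.97 in the other 4 HT29 libraries, and in SW480 it was 1.38 to 1.83 in mock against 2.36, 4.27 and 3.88 in ERβ replicates 1, 2 and 3. The HT29 replicate 1 libraries therefore stood above their groups and SW480 ERβ replicate 1 below its group. At 9 of the 10 bound receptor bins HT29 mock replicate 1 was the highest of its group, at 9 of the 10 HT29 ERβ replicate 1 was, and at all 10 SW480 ERβ replicate 1 was the lowest.

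A bin was called bound in a group when at least 2 of 3 libraries had a signal of 2 or more, 4-fold the matched input and 4-fold the mean of the surrounding 10 kb. By this rule, which involves no test, 10 of 40 receptors (25%) were bound in at least 1 group, against 20.1% of all highest bins, namely PPARA, NR4A1, ESRRA, RARG, NR1D2, VDR, NR4A2, NR1H3, PPARD and NR4A3. PPARA and NR4A1 were bound in all 4 groups, or 5% of the receptors against 2.57%, but with bins shifted by 100 bp PPARA lost the call in SW480 mock and NR4A1 in HT29 mock and SW480 mock. In HT29 mock cells 6 of 40 receptors (15.0%) were bound, against 9.37% of all highest bins, and in HT29 ERβ cells 4 of 40 (10.0%) against 6.39%. In SW480 mock cells 4 of 40 (10.0%) were bound against 3.77%, and in SW480 ERβ cells 10 of 40 (25%) against 18.0%. With 1 replicate left out and both others required, the HT29 mock call of NR4A2 and ESRRA was lost without replicate 1 or 3, the HT29 ERβ call of NR4A1 and RARG without replicate 1 or 2, the SW480 mock call of NR4A1, PPARA and VDR without replicate 2 or 3, and the SW480 ERβ call of VDR without replicate 2 or 3. SW480 ERβ cells had the most bound receptors, as they had the most bound bins of all genes, and no difference between the receptors' share and the background was tested. With 6-fold input, 0 receptors in SW480 mock and 1 in HT29 ERβ were bound, against 273 and 496 of the 13594 bins. The SW480 ERβ input was below the SW480 mock input at each bound receptor, which made the input limit easier to meet in SW480 ERβ. With the mean of both inputs of a line, the receptor calls did not change. Of all highest bins, 2168 in place of 2453 were then bound in SW480 ERβ and 633 in place of 512 in SW480 mock. The bound bins lay within 2.5 kb of the gene's own TSS for 6 receptors and more than 20 kb upstream for 4 (PPARA, RARG, NR1H3 and ESRRA).

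**Figure D1:**
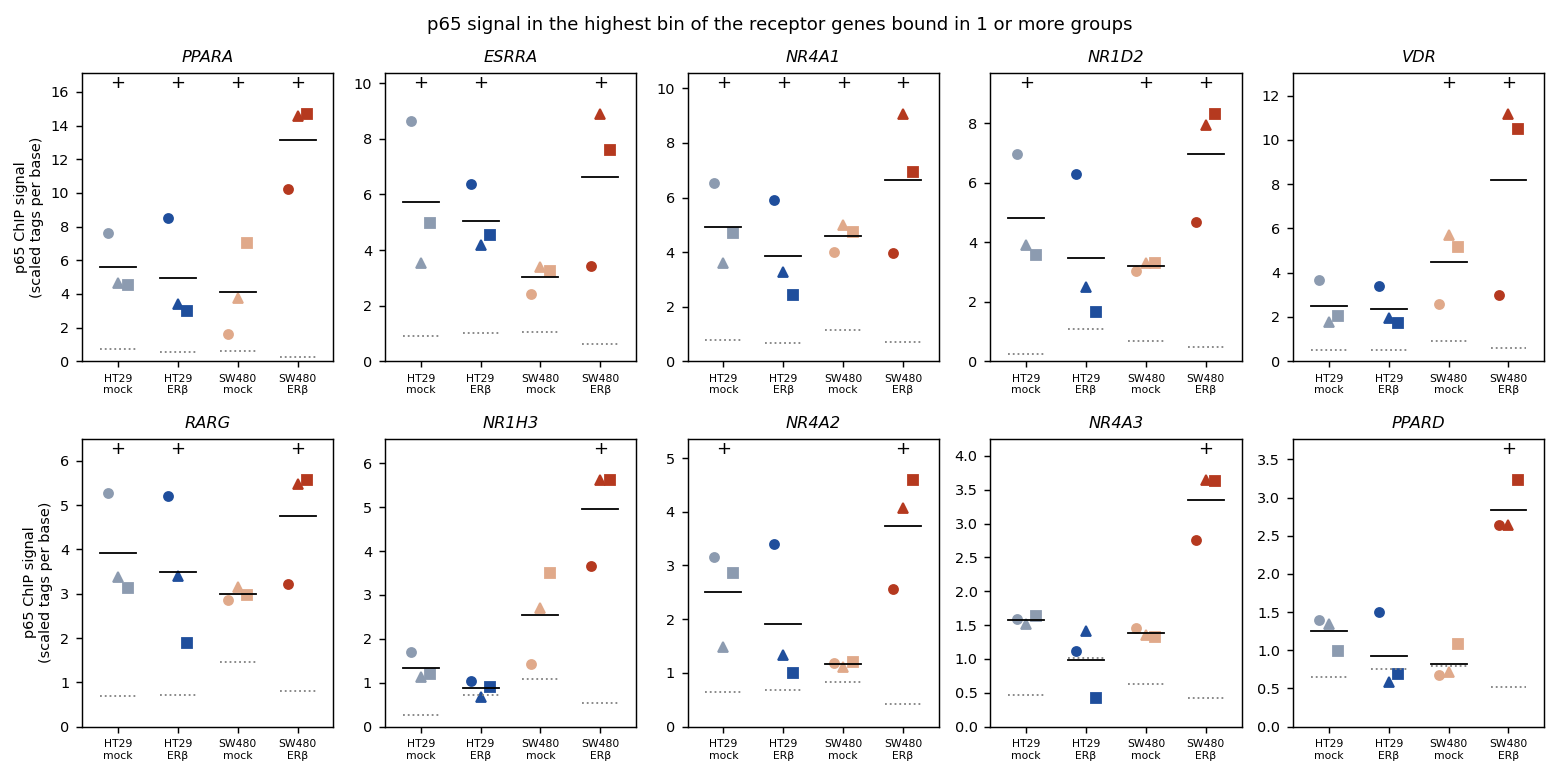
Signal in the highest bin of each of the 10 bound receptors. The vertical axis is p65 ChIP signal in scaled tags per base, from 0. Circles, triangles and squares are replicates 1, 2 and 3, black bars are means of 3, dotted lines are the matched input, and a plus marks a group called bound. SW480 ERβ has the highest mean at all 10 genes, with PPARA reaching 14.7.

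The 3 NR4A receptors, ligand-independent immediate-early factors, were all bound in SW480 ERβ cells. NR4A1 (Nur77) carried p65 341 bp upstream of its TSS in every group. Its signal in HT29 mock replicates was 6.51, 3.59 and 4.69, and in HT29 ERβ it was 5.92, 3.29 and 2.41. In SW480 it was 4.0, 5.0 and 4.72 in mock and 3.98, 9.05 and 6.94 in ERβ cells. The groups overlapped in both lines, and inputs ran from 0.651 to 1.15. The ERβ difference, on the log2(signal + 1) scale used for all tests, was −0.32 ± 0.47 (SE) in HT29 and 0.40 ± 0.32 in SW480, with limma adjusted p-values of 1 and 0.457, and without SW480 ERβ replicate 1 the latter was 0.69 with an adjusted p of 0.0332. A second bound region, 14741 bp upstream of this TSS and 476 bp upstream of an alternative NR4A1 start, was called in HT29 mock cells alone, with a mean of 2.29 ± 0.52 (SD, n = 3), although the SW480 ERβ mean was also 2.29, with an SD of 1.04.

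NR4A2 (Nurr1) was bound 580 bp upstream of its TSS in HT29 mock and SW480 ERβ cells. In SW480 ERβ its signal was 2.57, 4.06 and 4.60, while the mock libraries read 1.19, 1.12 and 1.21. The 2 SW480 groups did not overlap, and the difference of 1.10 ± 0.25 passed the threshold (limma, adjusted p = 0.00952). In HT29 mock it was 3.17, 1.48 and 2.86 and in HT29 ERβ 3.41, 1.33 and 0.993, groups that overlapped. At 200 bp downstream of the bin's centre SW480 mock averaged 1.87, against 3.18 in SW480 ERβ. A second NR4A2 region, in an intron 647 bp downstream of an alternative start, was bound in SW480 ERβ cells alone, at 2.82 ± 0.80 against 0.97 ± 0.02 in SW480 mock (SD, n = 3).

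NR4A3 (NOR1) was bound in SW480 ERβ cells alone, 2184 bp upstream of its TSS. The SW480 ERβ libraries read 2.76, 3.65 and 3.63 and the SW480 mock libraries 1.46, 1.35 and 1.33. These did not overlap, and the difference was 0.86 ± 0.24 (limma, adjusted p = 0.0304). The HT29 values were 1.58, 1.51 and 1.64 in mock and 1.11, 1.41 and 0.420 in ERβ cells, below the binding minimum in each library.

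Among the PPARs, sensors of fatty acids, PPARA and PPARD were bound and PPARG was not. The PPARA bin, 44825 bp upstream of the TSS with PPARA as the nearest protein-coding start, had the highest signal of all 40 receptors in the windows of the canonical TSS. In SW480 ERβ cells it read 10.2, 14.6 and 14.7, and in SW480 mock 1.61, 3.76 and 7.0. Every SW480 ERβ library exceeded every mock library, and the difference was 1.59 ± 0.37 (limma, adjusted p = 0.00971). HT29 mock read 7.63, 4.66 and 4.53 and HT29 ERβ 8.50, 3.40 and 2.97, with the replicate 1 libraries on top in both. The mean stood 57.2-fold above input in SW480 ERβ cells and 6.5 to 9.53-fold in the other groups, with an SW480 ERβ input of 0.230 that was the lowest input at any bound receptor. A second PPARA region, 575 bp downstream of the TSS, was also bound in SW480 ERβ cells, at 2.63 ± 1.71 (SD, n = 3) against 0.89 ± 0.26 in SW480 mock.

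PPARD, at 57 bp upstream of its TSS, was bound in SW480 ERβ cells alone. The SW480 ERβ libraries read 2.64, 2.65 and 3.23, and SW480 mock 0.673, 0.716 and 1.08, near the mock input of 0.795. The groups were separate, and the difference was 1.08 ± 0.23 (limma, adjusted p = 0.00610). In HT29 the values were 1.4, 1.35 and 0.993 in mock and 1.5, 0.587 and 0.683 in ERβ cells. PPARD was the bound receptor with the lowest signal, and it fell below the binding call with a signal minimum of 3, with 6-fold input or with bins shifted by 100 bp.

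**Figure D2:**
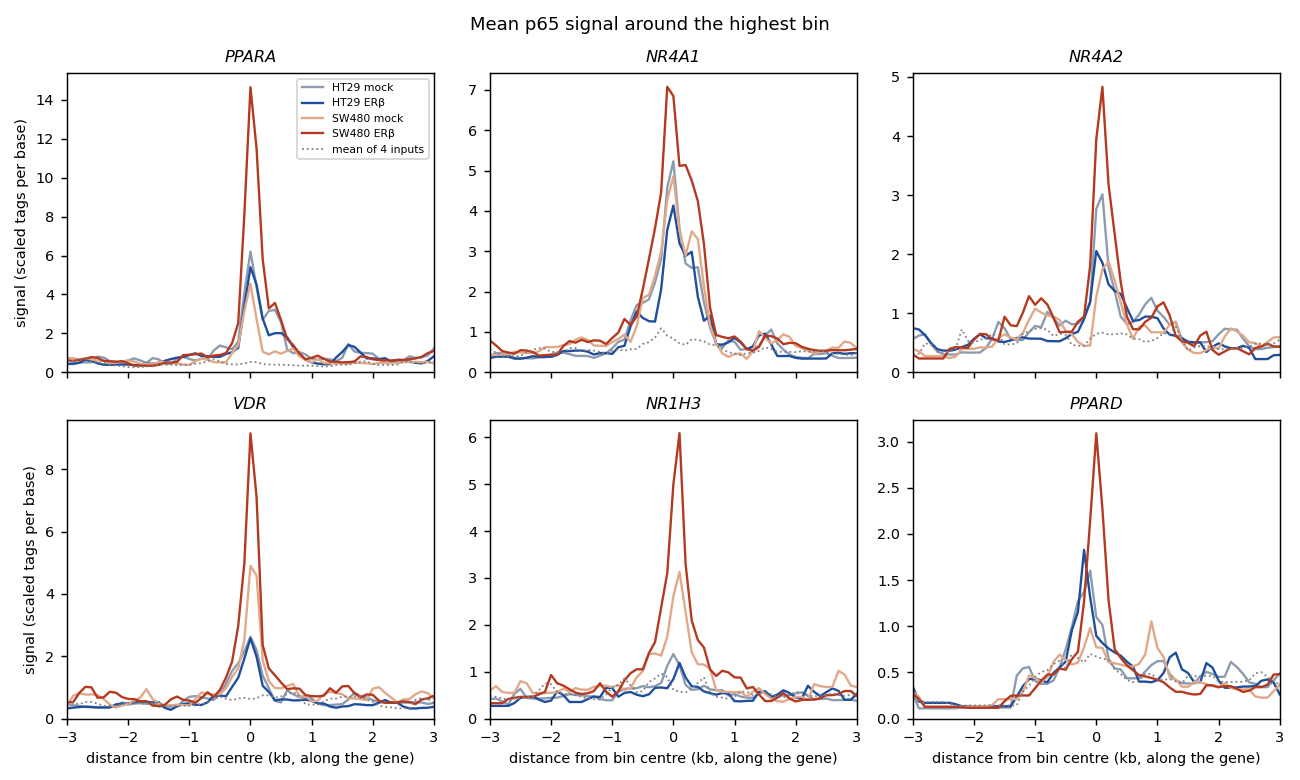
Mean signal of 3 replicates in 100-bp steps within 3 kb of the centre of the highest bin at 6 bound receptors, in scaled tags per base; the dotted line is the mean of the 4 inputs, and distance runs in the gene's direction. In SW480 ERβ each gene has its highest point within 100 bp of the bin's centre. Among the other groups the highest point lies elsewhere at PPARD in HT29 ERβ and SW480 mock, and at NR4A2 in SW480 mock.

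VDR, RARG and NR1H3 encode partners of RXR, namely the vitamin D receptor, retinoic acid receptor γ and liver X receptor α. The VDR promoter, 507 bp upstream of the TSS, was bound in both SW480 groups. Without the condition on the surrounding 10 kb this promoter was also called bound in HT29 mock. It read 2.59, 5.69 and 5.15 in SW480 mock and 2.99, 11.2 and 10.5 in SW480 ERβ, where replicate 1 stood apart from the other 2. The ERβ difference was 0.64 ± 0.38 (limma, adjusted p = 0.312), and without SW480 ERβ replicate 1 it was 1.16 with an adjusted p of 0.00216. The HT29 libraries read 3.67, 1.76 and 2.03 in mock and 3.39, 1.96 and 1.74 in ERβ, and in ERβ cells VDR was higher in SW480 than in HT29 by 1.32 ± 0.43 (limma, adjusted p = 0.0122). A stronger VDR bin outside this window, found with every annotated TSS used, was bound in all 4 groups. There the line difference in ERβ cells was 0.82 (limma, adjusted p = 0.134).

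The bin assigned to RARG lay 36092 bp upstream of its TSS and 2 bp from the start of ESPL1, which encodes separase, so it is a promoter bin of that gene as much as a receptor bin. It was bound in HT29 mock (5.27, 3.37 and 3.12), HT29 ERβ (5.21, 3.40 and 1.88) and SW480 ERβ (3.22, 5.48 and 5.58), and the SW480 mock values of 2.85, 3.16 and 2.98 fell short of 4-fold the input of 1.47. None of the 5 comparisons passed the threshold for this bin, although without SW480 ERβ replicate 1 the ERβ difference in SW480 did (0.71 in place of 0.50, limma, adjusted p = 0.0210). A region nearer to RARG, 4492 bp upstream, was bound in SW480 ERβ cells alone, at 3.39 ± 1.26 against 0.90 ± 0.79 in SW480 mock (SD, n = 3).

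The bin assigned to NR1H3 lay 23095 bp upstream of its TSS, in an exon 274 bp downstream of a start of DDB2, a DNA-damage binding factor. It was bound in SW480 ERβ cells alone, at 3.67, 5.61 and 5.63, against 1.43, 2.71 and 3.50 in SW480 mock. The inputs were 0.530 in SW480 ERβ and 1.095 in SW480 mock. Mock replicates 2 and 3 passed the signal minimum of 2 but fell short of 4-fold the mock input. The HT29 values were lower, 1.69, 1.14 and 1.19 in mock and 1.03, 0.683 and 0.912 in ERβ. Every SW480 ERβ library exceeded every other, and SW480 ERβ was above HT29 ERβ by 1.66 ± 0.35 (limma, adjusted p = 7.54e-05). The ERβ difference within SW480 was 0.78 ± 0.29 (limma, adjusted p = 0.101, and 0.0137 with the replicate block).

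NR1D2 and ESRRA encode REV-ERBβ, a haem-binding repressor of the circadian clock, and oestrogen-related receptor α, an orphan regulator of mitochondrial genes. NR1D2 was bound 1015 bp downstream of its canonical TSS, in an intron 180 bp from an alternative start. The bin also lay within the gene NKIRAS1, so it is not particular to NR1D2. It was bound in HT29 mock (6.98, 3.92 and 3.59), SW480 mock (3.02, 3.31 and 3.32) and SW480 ERβ (4.69, 7.95 and 8.31). In HT29 ERβ it read 6.29, 2.5 and 1.66 over an input of 1.10, which missed the call for this bin, although a bin within 400 bp of it was bound there too. SW480 ERβ did not overlap SW480 mock, with a difference of 0.89 ± 0.30 (limma, adjusted p = 0.0654, and 0.00780 with the replicate block).

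The bin assigned to ESRRA lay 20423 bp upstream of its TSS, at 44 bp from a start of GPR137 and in the promoter of BAD, a proapoptotic BCL2 relative. It was bound in HT29 mock (8.65, 3.52 and 4.98), HT29 ERβ (6.39, 4.16 and 4.55) and SW480 ERβ (3.42, 8.88 and 7.60), while SW480 mock read 2.41, 3.40 and 3.26. The SW480 mock values fell short of 4-fold their input of 1.07, and the SW480 ERβ input was 0.616. The ERβ difference in SW480 was 0.85 ± 0.32 (limma, adjusted p = 0.0960, and 0.0102 with the replicate block), and the 2 SW480 groups stood just apart. A further region at another GPR137 start, 35623 bp upstream of ESRRA, was bound in HT29 mock and SW480 ERβ cells.

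Taking all receptors, the comparison of ERβ with mock cells within a line asks whether p65 occupancy of the receptor genes differed where ERβ was present. In HT29, 0 of 40 receptors passed an adjusted p of 0.05 in either direction (limma), against 0.00% of all bins higher and 0.00736% lower. An unadjusted p under 0.05 was found at 3 receptors and at 400 of the 13594 bins, and 0 receptors passed with the replicate block. The difference was above 0 at 5 of the 40 receptors, and the HT29 ERβ mean was below the mock mean at all 10 bound receptors. The share of all bins above 0 was not counted. Over all 2739 bins bound in at least 1 group the median was −0.18, against −0.28 over these 10 receptors. With libraries rescaled on the bound bins these were 0.01 and −0.11. The median log2 difference was −0.15 over the 40 receptors and −0.07 over all bins. Without HT29 mock replicate 1 these medians were −0.04 and 0.02, and without HT29 ERβ replicate 1 they were −0.26 and −0.13. With libraries rescaled on the bound bins they were 0.00025 and 0.07, and 20 of the 40 were above 0. In SW480, 4 of 40 receptors (10.0%) rose with ERβ and 0 fell, against 8.15% and 0.0221% of all bins. The 4 were PPARA, NR4A2, PPARD and NR4A3. The difference was above 0 at 31 of the 40 receptors, with a median of 0.20 over the 40 receptors and also over all bins, while with libraries rescaled on the bound bins it was above 0 at 9, with medians of −0.32 and −0.30. Over the 2739 bound bins the median was 0.69, against 0.86 over the 10 bound receptors, and −0.05 against −0.0070 after rescaling. The 10 bound receptors were all bound in SW480 ERβ cells and NR1H3, PPARD and NR4A3 there alone, so that their own direction in this comparison is partly set by the binding rule. The bin itself was also chosen on the mean of the same libraries, so groups with more signal weigh more in where it lies.

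The replicate numbers were taken to pair the mock and ERβ libraries of a line. In HT29, mock replicate 2 correlated by 0.177 with ERβ replicate 2 and by 0.212 with ERβ replicate 3, so the pairing there is uncertain. With the replicate block, 8 receptors rose in SW480 (20% of 40, against 17.0% of all bins), the 4 above plus NR1H3 (adjusted p = 0.0137), ESRRA (adjusted p = 0.0102), NR1D2 (adjusted p = 0.00780) and NR6A1 (adjusted p = 0.0362). NR6A1 read 0.773, 0.485 and 0.350 in SW480 mock and 0.740, 2.21 and 1.4 in SW480 ERβ and was bound in no group. When each library was divided by its own median over the bound bins, the median of all bins in this comparison moved from 0.20 to −0.30. Of the 2739 bins used for this scaling 2453 were bound in SW480 ERβ cells, so it takes out their rise there by construction, from a median of 0.69 to −0.05. On the rescaled values 0 receptors rose and ESRRG, an unbound gene, was lower by −0.65 (limma, adjusted p = 0.0432). There 12 of 40 receptors and 4264 of the 13594 bins had an unadjusted p under 0.05 in either direction. On that scale PPARA, PPARD, NR4A2, NR4A3 and NR1D2 kept a positive sign, with 0.71, 0.47, 0.39, 0.14 and 0.0069, and NR1H3, ESRRA, VDR, RARG and NR4A1 turned to −0.035, −0.021, −0.28, −0.36 and −0.51. The split of all called bins was 1108 higher and 3 lower on the deposited scaling, and 84 and 446 after rescaling. On leaving out 1 library the differences ranged from 1.18 to 1.99 at PPARA, 0.97 to 1.29 at NR4A2, 1.00 to 1.18 at PPARD and 0.81 to 0.96 at NR4A3, while some calls were lost. PPARA and NR4A2 lost the call without SW480 mock replicate 1 or 2 or ERβ replicate 3 (highest adjusted p 0.134 and 0.0739), PPARD without mock replicate 1 or 2 (0.0592), and NR4A3 without any 1 library other than ERβ replicate 1 (0.127). Without ERβ replicate 1 the count was 15 receptors, with 3330 of the 13594 bins called higher. Without mock replicate 1 or 2 it was 0 receptors, with 243 or 341 bins called higher.

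**Figure D3:**
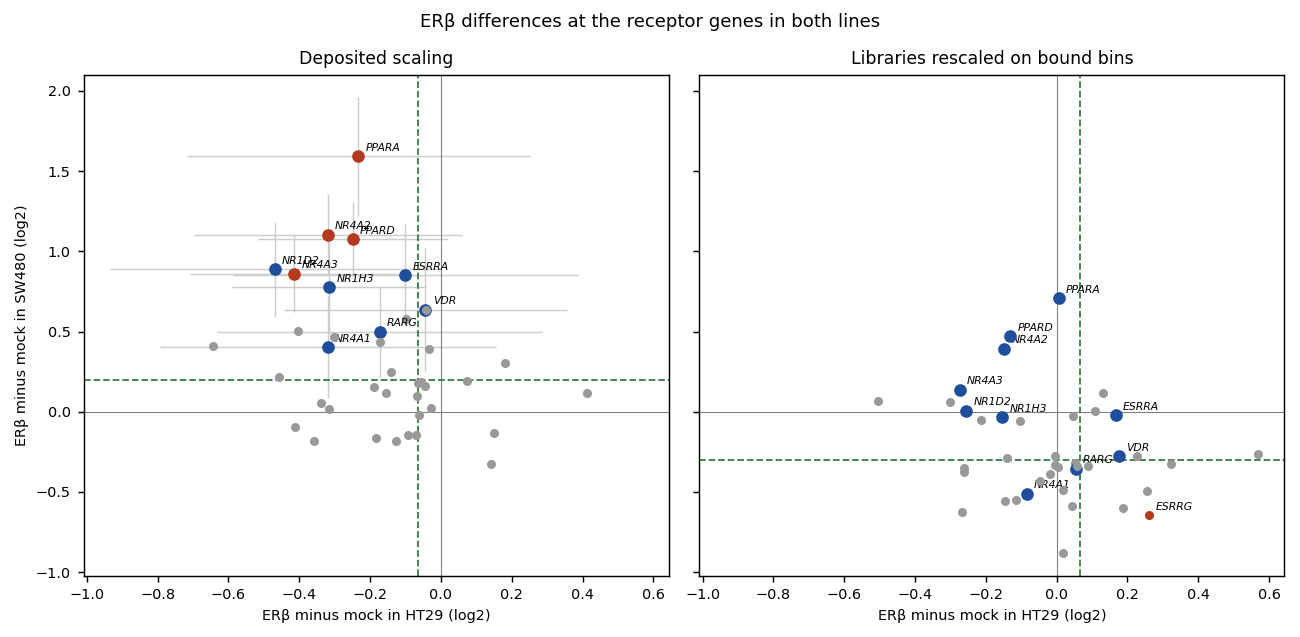
Log2 difference between ERβ and mock cells in HT29 (horizontal) and SW480 (vertical) for the 40 receptors, on the deposited scaling (left, with SE for the bound receptors) and after rescaling of the libraries (right). Large points are bound receptors, red points pass an adjusted p of 0.05 in SW480, and dashed lines are the medians over all bins (0.20 in SW480 on the left, −0.30 on the right). All 10 bound receptors, each bound in SW480 ERβ, lie above 0 in SW480 on the left and 5 of them on the right, with PPARA the highest.

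The ERβ effect in SW480 exceeded that in HT29 at 2 receptors (5% of 40, against 2.57% of all bins), PPARD and THRA, and fell below it at 0 (against 0.00736%). For PPARD the difference of the effects was 1.33 ± 0.36 (limma, adjusted p = 0.0254). For THRA, the thyroid hormone receptor α gene, it was 1.05 ± 0.29 (limma, adjusted p = 0.0294), at a bin 39264 bp upstream that is in the promoter of MED24, a Mediator subunit gene, and holds 2 κB matches. This bin was bound in no group. It read 2.87, 0.720 and 1.48 in HT29 mock, 1.10, 0.420 and 0.452 in HT29 ERβ, 0.20, 0.350 and 0.345 in SW480 mock, and 0.390, 0.678 and 1.2 in SW480 ERβ. The highest values were thus in HT29 mock cells, and the lowest in SW480 mock cells, below their input of 0.390. With the replicate block 10 receptors passed, against 17.3% of all bins higher: PPARA, NR4A2, PPARD, NR1D2, NR4A3, NR1H3, ESRRA, THRA, NR2E1 and NR5A1. With rescaled libraries 0 passed.

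Between the lines, in mock cells, 3 of 40 receptors (7.50%) were higher in SW480 and 3 (7.50%) lower, against 11.0% and 10.2% of all bins, and all 6 were at bins bound in no group. The clearest was NR3C1, the glucocorticoid receptor gene, at an intronic bin 14615 bp upstream of the canonical TSS. It read 3.42, 1.55 and 1.13 in HT29 mock against 0.340, 0.190 and 0.540 in SW480 mock, a difference of −1.10 ± 0.23 (limma, adjusted p = 8.50e-05). In ERβ cells it read 2.36, 0.952 and 0.893 in HT29 and 0.230, 0.560 and 0.320 in SW480, or −0.76 ± 0.21 (limma, adjusted p = 0.00196). The lines did not overlap, both calls held without any 1 library while with input subtracted the differences were −1.25 and −0.78 with adjusted p-values of 0.104 and 0.0799, the SW480 values were near their inputs of 0.400 and 0.340, and the input of this window differed by only 0.02 between the lines on the log2 scale. THRA was also lower in SW480 mock, by −0.97 ± 0.21 (limma, adjusted p = 0.000165), as was NR5A1, encoding steroidogenic factor 1, by −0.67 ± 0.22 (limma, adjusted p = 0.0162) with 1.5, 1.68 and 1.04 against 0.250, 1.09 and 0.296. RORA, ESRRB and NR0B1 were higher in SW480 mock by 0.67, 0.41 and 0.49 (limma, adjusted p = 0.0317, 0.0425 and 0.0310). With the window input of each line divided out, ESRRB and NR0B1 lost the call at 0.20 and 0.36 (adjusted p = 0.443 and 0.216). THRA kept its call without any 1 library but not with input subtracted (−1.08, adjusted p = 0.146). NR5A1 lost it without HT29 mock replicate 2 or SW480 mock replicate 1 or 3, NR0B1 without HT29 mock replicate 2 or 3 or SW480 mock replicate 1, RORA without HT29 mock replicate 2 or 3 or SW480 mock replicate 1 or 2, and ESRRB without any 1 library other than SW480 mock replicate 1 (adjusted p up to 0.181, 0.161, 0.215 and 0.161), with differences of −0.91 to −0.54, 0.42 to 0.60, 0.47 to 0.82 and 0.33 to 0.53 over the fits without 1 library. After rescaling, the called bins of all genes split 4117 higher to 951 lower in place of 1490 to 1393, NR1H3, VDR and RARB joined the receptors higher in SW480, with 0.90, 1.05 and 0.49, to make 6, and NR5A1 lost its call (−0.46, adjusted p = 0.0838).

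In ERβ cells 10 of 40 receptors (25%) were higher in SW480 and 2 (5%) lower, against 26.9% and 3.46% of all bins. After rescaling the balance turned to 4 higher (NR1H3, VDR, PPARA and NR4A3) and 6 lower (NR3C1, NR2F2, NR1H2, NR5A2, NR2E3 and ESRRG), as the called bins of all genes split 908 to 1445 in place of 3655 to 471. Of the 10 on the deposited scaling, 5 were bound in SW480 ERβ: NR1H3, VDR, PPARA, PPARD and NR4A3, with differences of 1.66, 1.32, 1.35, 1.02 and 1.16 (limma, adjusted p = 7.54e-05, 0.0122, 0.0181, 0.00574 and 0.00284). The input of the windows was higher in SW480 by 0.23, 0.44 and 0.41 on the log2 scale at NR1H3, VDR and PPARA, and lower at PPARD (−0.03) and NR4A3 (−0.09). With each line's window input divided out, VDR and PPARA lost the call at 0.91 and 0.98 (adjusted p = 0.102 and 0.112), while PPARD at 0.99, NR4A3 and NR1H3 kept it. VDR and PPARA also lost it when HT29 ERβ replicate 2 or 3 or SW480 ERβ replicate 2 or 3 was left out, PPARD without HT29 ERβ replicate 2 or 3, and NR4A3 without HT29 ERβ replicate 3, with adjusted p-values of up to 0.156. The differences without 1 library ran from 1.04 to 1.84 at VDR, 1.11 to 1.74 at PPARA, 0.90 to 1.23 at PPARD and 0.94 to 1.32 at NR4A3, and PPARD was 0.43 with bins shifted by 100 bp (adjusted p = 0.280). The other 5, ESRRB, RORA, RARB, NR2E1 and NR0B1, were not bound, with SW480 ERβ means from 0.735 to 1.42, and their differences ran from 0.51 to 0.73. The bin assigned to NR2E1 lay 32121 bp upstream of its TSS, in an exon 144 bp downstream of a start of OSTM1. ESRRB, with 0.80, and NR0B1, with 0.51, were among the windows with more input in SW480. With each line's window input divided out both kept the call, at 0.45 and 0.62 (limma, adjusted p = 0.0376 and 0.0169). ESRRB and NR0B1 kept the call without any 1 library, RORA lost it without HT29 ERβ replicate 1 or 3 or SW480 ERβ replicate 2 or 3, RARB without HT29 ERβ replicate 2 or SW480 ERβ replicate 3, and NR2E1 without HT29 ERβ replicate 2 or 3 or SW480 ERβ replicate 2 (adjusted p up to 0.168, 0.141 and 0.0830, with differences no lower than 0.42, 0.28 and 0.51). NR3C1 and NR2F2 (COUP-TFII) were lower in SW480, NR2F2 by −0.68 ± 0.23 (limma, adjusted p = 0.0180, and up to 0.121 without HT29 ERβ replicate 1 or SW480 ERβ replicate 2 or 3), with a range of −0.82 to −0.43 without 1 library.

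**Figure D4:**
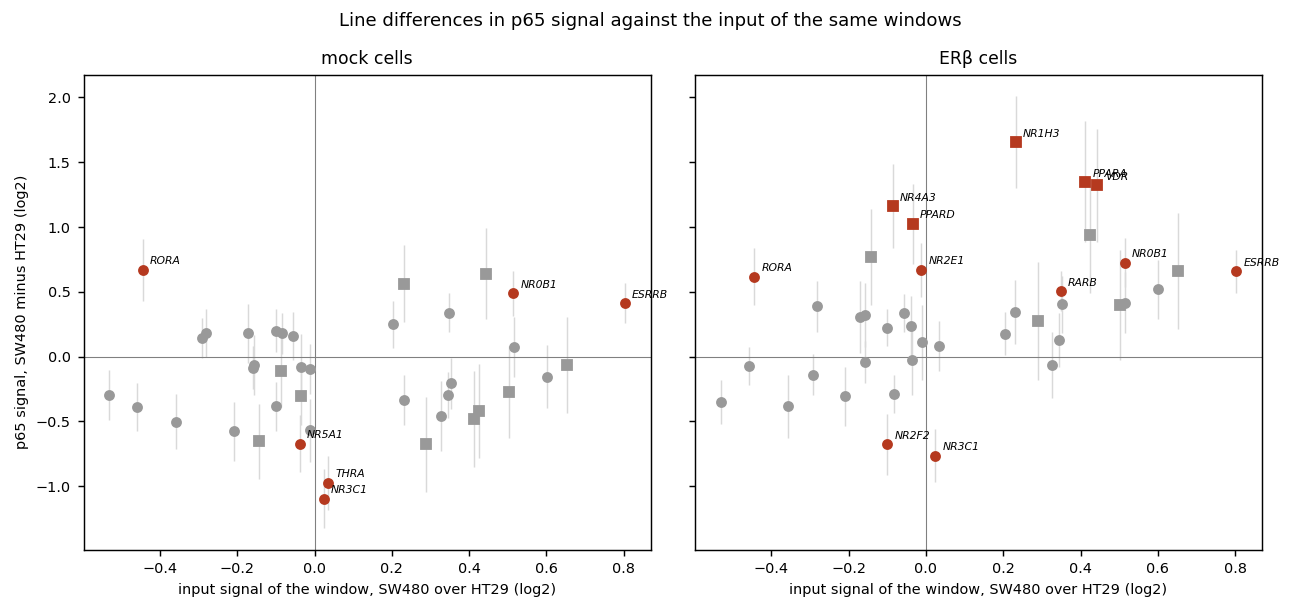
Log2 difference in p65 signal between SW480 and HT29 (vertical, with SE) against the log2 ratio of input signal in the same windows (horizontal) for the 40 receptors in mock and ERβ cells. Squares are receptors bound in at least 1 group and red points pass an adjusted p of 0.05. In mock cells no bound receptor passes; in ERβ cells NR1H3, VDR, PPARA, PPARD and NR4A3 do.

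The other 30 receptors were bound in no group. Their means over the 12 libraries lay between 0.429 and 1.38, against 1.46 to 6.96 for the bound receptors, and the highest single value was 3.42, at NR3C1 in HT29 mock replicate 1. They comprised the thyroid hormone receptors (THRA, THRB), the retinoid receptors RARA, RARB, RXRA and RXRG, PPARG, the liver X receptor β gene NR1H2, the bile acid and xenobiotic receptors (NR1H4, NR1I2, NR1I3), the steroid receptors NR3C1 and NR3C2, the orphan receptors RORA, RORB, ESRRB, ESRRG, NR2C1, NR2C2, NR2E1, NR2E3, NR2F1, NR2F2, NR2F6, NR5A1, NR5A2, NR6A1 and HNF4G, and the DNA-binding-domain-free repressors NR0B1 and NR0B2. THRB, RXRG, RORA and NR2C1 were bound in 1 group each when the signal minimum was lowered to 1.5. The study names NR2F6 among genes whose TNFα induction in SW480 needed ERβ and the p65 binding that followed. It used its own peak calls and assigned peaks to the nearest gene. The window and limits used here held no bound region for NR2F6 in any group.

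**Figure D5:**
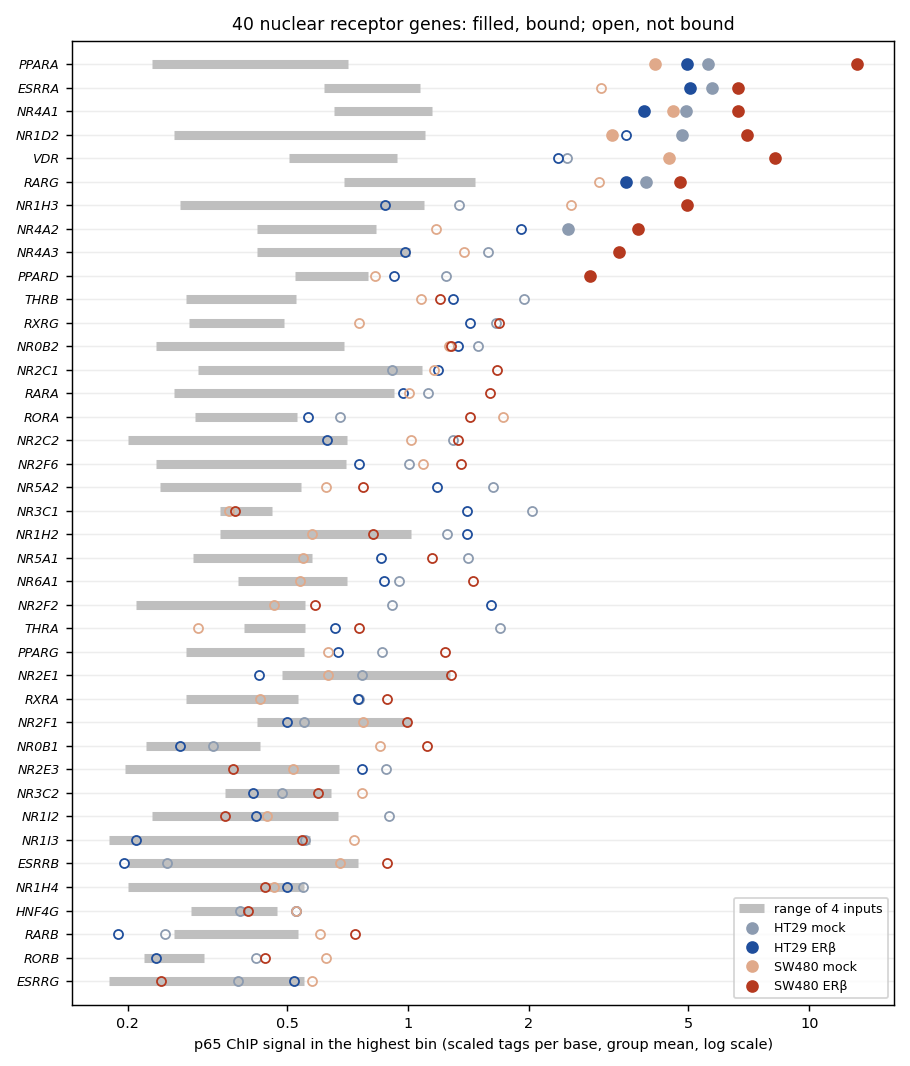
Group means of the signal in the highest bin for the 40 receptors, ordered by the mean over 12 libraries, on a log axis in scaled tags per base. Filled circles are bound, open circles not bound, and grey bars span the 4 inputs. The 10 bound receptors stand at the top, and for most of the others some group means lie within the input range.

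Several receptors have further annotated starts, and their p65 bins then lay outside the canonical window. With every annotated TSS used, the highest VDR bin moved into an intron, 4293 bp downstream of a start, and was bound in all 4 groups. Its means were 10.8 ± 4.09 in HT29 mock, 9.79 ± 2.73 in HT29 ERβ, 12.5 ± 1.62 in SW480 mock and 18.1 ± 4.83 in SW480 ERβ (SD, n = 3), above every canonical receptor bin of the same group. RARB, ESRRB, RXRA and RORA became bound in at least 1 group. The RARB bin was bound in both SW480 groups, at 3.31 ± 0.89 and 4.95 ± 2.54, against 0.65 ± 0.47 and 0.54 ± 0.29 in HT29. The ESRRB bin was bound in SW480 ERβ cells at 3.61 ± 1.06 against 0.22 ± 0.04 to 1.57 ± 0.32 elsewhere, and RXRA in SW480 ERβ cells at 4.07 ± 2.82, with replicate 1 at 0.811 and means of 2.31, 2.31 and 2.40 in HT29 mock, HT29 ERβ and SW480 mock. The RARG bin moved to the promoter of another RARG start and was bound in HT29 mock and SW480 ERβ cells, where it passed for ERβ in SW480 (1.13, limma, adjusted p = 0.0189) and between the lines in ERβ cells (1.32, limma, adjusted p = 0.0150). ESRRB also passed for ERβ in SW480 (0.82, limma, adjusted p = 0.0489). Its line differences were 1.07 in mock and 1.85 in ERβ cells (limma, adjusted p = 2.15e-05 and 1.08e-08). For RARB they were 1.41 and 1.87 (limma, adjusted p = 6.91e-05 and 7.74e-07), all higher in SW480. NR1H4, not bound, was lower in SW480 mock (−0.49, limma, adjusted p = 0.0347). VDR lost its line call in ERβ cells at its new bin (0.82, limma, adjusted p = 0.134), and THRA its line call in mock cells (−0.34, limma, adjusted p = 0.221). The RORA bin was bound in HT29 ERβ cells at 1.86 ± 0.62, while HT29 mock was higher at 2.48 ± 0.86 but missed the call over an input of 0.790, and SW480 read 0.50 ± 0.29 in mock and 0.89 ± 0.39 in ERβ cells, and the mock line difference of RORA turned from higher in SW480 to lower, with −1.21 (limma, adjusted p = 0.000149).

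Genes that work with or downstream of the receptors were read in the same way, by counts. Of 30 nuclear receptor coregulators 7, 8, 5 and 11 were bound in HT29 mock, HT29 ERβ, SW480 mock and SW480 ERβ cells (23.3%, 26.7%, 16.7% and 36.7%), against 9.37%, 6.39%, 3.77% and 18.0% of all bins. Those with the highest means were GPS2 (7.03, 6.42, 16.0 and 25.4 in the same order), TBL1XR1 (5.63, 5.99, 9.05 and 21.7), PNRC1, TRIP4 and PRMT1. GPS2 and TBL1XR1 both encode subunits of the corepressor complex that holds HDAC3. The GPS2, PNRC1 and PRMT1 bins lay 36541, 44650 and 36970 bp upstream of the gene's TSS. Neighbouring genes were not examined for the bins of these lists, and no list's share was tested against the background. Of 29 measured receptor target genes 2, 3, 2 and 8 were bound (6.90%, 10.3%, 6.90% and 27.6%), with PER1, CYP24A1, DUSP1, FGF19 and KLF9 the highest in mean. In SW480, 3 coregulators, 3 target genes and 2 of the 14 NFκB feedback genes rose with ERβ. In each list 0 fell, and of all bins 8.15% rose and 0.0221% fell. The median log2 differences of the 3 lists were 0.39, 0.38 and 0.42, against 0.20 for the 40 receptors and 0.20 for all bins. Most of all bins were unbound. Over the 2739 bins bound in at least 1 group the median was 0.69, and 29.0% were called higher. All 14 feedback genes were bound in each group, so the bound bins are their closer reference. In HT29 0 genes of the 3 lists passed in either direction.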

How the data were processed

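p65 ChIP-Seq of 12 libraries (4 groups of 3 biological replicates) and 4 inputs was analysed from the deposited coverage tracks. The submitters mapped single-end reads with STAR to hg38 (GRCh38) and wrote the tracks with HOMER; versions are not given in the sources used here. The deposited signal is tag density per base, which the authors scaled to 10000000 tags and 100-bp fragments; values under 0.05 were not listed, and low stretches were merged into longer intervals. Read counts could not be recovered from the tracks and the study's mapped-read totals were not used here, so no counting interval is given, and the authors' edgeR test on tag counts was replaced. The tracks of the 16 libraries summed to 94.3% to 97.6% of that total.

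Signal was averaged in 200-bp bins, and for each protein-coding gene (GENCODE release 44, canonical TSS) the bin with the highest mean over the 12 ChIP libraries was kept; windows with more than 50% of bins empty in all 16 libraries were left out. Binding needed a signal of at least 2, 4-fold over its matched input (same cell line, same ERβ status), and 4-fold over the surrounding 10 kb, in 2 of 3 libraries. Groups were compared with limma 3.58.1 (R 4.3.3, mean-variance trend) on log2(signal + 1) over all 13594 distinct bins, with Benjamini-Hochberg adjustment over all of them and a threshold of 0.05; 6 libraries entered each comparison and 12 the difference of the ERβ effects. A fold on this scale understates the change of low bins. Deviations from the group means of same-numbered mock and ERβ libraries correlated over the 2739 bound bins by 0.521, 0.177 and 0.253 in HT29 and 0.331, 0.146 and 0.255 in SW480, all over the limit of 0.1 (−0.388 to 0.212 in HT29 and −0.271 to 0.0109 in SW480 for libraries of different number), so the numbers were taken to pair libraries within a line. In HT29 the unmatched libraries of replicates 2 and 3 also passed the limit of 0.1, so it did not single out the matched numbers. The comparisons share samples. Receptors bound in a group or past the threshold in a comparison are named with values, the others in groups, and the other lists by counts with up to 5 values. The members, the lists and the alternatives were chosen with earlier results of these data known. Motifs were searched on both strands of GRCh38.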

Additional observations from a re-analysis of the deposited data

Results flagged for a closer look

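The ERβ effects of the 2 lines differed by the test of the difference itself at 2 receptors. At PPARD the effect in SW480 exceeded that in HT29 by 1.33 on the log2(signal + 1) scale (SE 0.36, limma, adjusted p = 0.0254), with SW480 ERβ values of 2.64 to 3.23 and all other libraries at or below 1.5. These values hold for a bin chosen on the mean of the same 12 libraries. At 200 bp upstream of its centre, HT29 ERβ averaged 1.83 and HT29 mock 1.37, against 1.27 in SW480 ERβ. The call was lost without HT29 mock replicate 1, HT29 ERβ replicate 2 or 3, SW480 mock replicate 1 or 2 or SW480 ERβ replicate 3 (adjusted p up to 0.121), while the difference stayed between 1.20 and 1.53 without any 1 library, and after rescaling of the libraries the value was 0.59 (adjusted p = 0.211), against 0.80 with bins shifted by 100 bp (adjusted p = 0.234). At the bin assigned to THRA, in the MED24 promoter, the difference was 1.05 (SE 0.29, limma, adjusted p = 0.0294), from a mean of 1.69 in HT29 mock to 0.659 in HT29 ERβ and from 0.298 in SW480 mock to 0.755 in SW480 ERβ, all below the binding minimum of 2. It was lost without HT29 mock replicate 1, HT29 ERβ replicate 2 or 3, or any 1 SW480 library other than ERβ replicate 1 (adjusted p up to 0.18), with differences of 0.75 to 1.34 without any 1 library, and it was 0.59 after rescaling (adjusted p = 0.210), 0.92 with shifted bins (adjusted p = 0.0640) and 0.20 with every TSS (adjusted p = 0.736), which takes another bin.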

How the results depend on the processing

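Binding calls rested on fixed limits without a test, and with 1 input per group the input error is unknown. With 6-fold input in place of 4-fold, 3, 1 and 0 receptors were bound in HT29 mock, HT29 ERβ and SW480 mock, and 496 and 273 bins of all genes in HT29 ERβ and SW480 mock; a signal minimum of 3 left 821 and 552 bins in HT29 mock and HT29 ERβ. With 3 of 3 replicates required, 2 and 1 receptors were bound in HT29 ERβ and SW480 mock, and 517, 321 and 1355 bins in HT29 ERβ, SW480 mock and SW480 ERβ. Shifted bins left 0 receptors in SW480 mock. With both libraries required after leaving out 1 replicate, the receptors bound ranged from 4 to 6, 2 to 4, 1 to 4 and 9 to 10 in HT29 mock, HT29 ERβ, SW480 mock and SW480 ERβ, and the bins from 901 to 1133, 518 to 728, 349 to 454 and 1377 to 2370.

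For ERβ in HT29, where 1 bin was called, 0 were called with all 12 libraries, with input subtracted, with a mean of at least 1, with the replicate block or after rescaling, 2 with shifted bins, and 1 to 4 on leaving out a replicate, with 0 receptors throughout. For ERβ in SW480, 9 receptors and 3051 bins were called with input subtracted, 8 and 2328 with the replicate block, and 1 and 530 after rescaling; leaving out a replicate gave 0 to 15 and 243 to 3351. After rescaling NR1H3, ESRRA, VDR, NR4A1 and RARG changed sign in SW480, to −0.035, −0.021, −0.28, −0.51 and −0.36. For the difference of the ERβ effects, 12 receptors and 3132 bins were called with input subtracted, 10 and 2366 with the block, 0 and 91 after rescaling, 4 receptors with a mean of at least 1, and 1 receptor with shifted bins or with every TSS; leaving out a replicate gave 0 to 8 and 104 to 1282.

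Between the lines in mock cells, 0 receptors and 206 bins were called with input subtracted, 3 and 1560 with a mean of at least 1, 1475 bins with copy number divided out and 5068 after rescaling; leaving out a replicate gave 4 to 6 receptors and 1929 to 2501 bins. In ERβ cells, 7 receptors and 2003 bins were called with a mean of at least 1, 2720 bins with copy number divided out and 2353 after rescaling; leaving out a replicate gave 7 to 16 and 2391 to 4677. ESRRB in mock cells turned to −0.020 with input subtracted, and with every TSS RORA turned to −1.21 and −0.59 in mock and ERβ cells and NR2F2 in ERβ cells to 0.30. Across lines the replicate numbers share only a number; the block gave 4 and 10 receptors there, against 6 and 12. Of 438 values of single receptors under the alternatives, 310 kept their direction and side of the threshold, 105 lost the call, 14 gained it and 9 changed sign; the cause was not tested.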
